A study of Mus musculus with 4 samples.

Results

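Fgf5, Otx2, Pou3f1, Lef1, Zic2, Zic5, Sall2 and Foxd3 are genes of the formative and primed epiblast, and their messenger RNA was followed in mouse embryonic stem cells (mESC) after induced loss of Ogt. These 8 genes were chosen by symbol from the 25239 gene symbols of the count tables, and all 8 passed the filter on low counts, as did 14525 genes in all. The Ogt induced knockout group (Ogt iKO) held 2 libraries of Ogt fl/fl mESC kept for 6 days with 4-hydroxytamoxifen (4-OHT), a drug metabolite used to switch on recombinases fused to an oestrogen receptor domain. The 2 control libraries came from Ogt fl/fl mESC cultured without 4-OHT, also for 6 days. All cells grew in serum replacement medium with the cytokine LIF on feeder fibroblasts blocked with mitomycin C, and were sorted alive by surface staining before polyadenylated RNA was sequenced. Sorting for yellow fluorescent protein was described for the 4-OHT cultures only, no recombinase driver was named, and no culture received 4-OHT with Ogt intact, so ligand, recombinase, sort and loss of Ogt cannot be told apart. Nothing in the labels says that replicates were separate cultures, so the p-values measure the spread between these libraries, which may be technical.

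Stem cells in culture can hold a naive state, like the epiblast of the blastocyst before implantation. On leaving it they pass through a formative state, in which naive factors are switched off and genes such as Fgf5, Otx2 and Pou3f1 are switched on, and then reach a primed state like the epiblast just before gastrulation. Signalling by FGF and ERK drives this exit, OTX2 redirects pluripotency factors to new enhancers during it, and the TCF and LEF factors read out β-catenin along the way. The comparison asked whether the fall of naive factors in Ogt iKO cells went with a rise of the epiblast genes.

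The epiblast genes did not move as a block. Fgf5 rose 4.08-fold and Sall2 rose 1.82-fold, while Otx2, Zic5, Zic2, Pou3f1 and Lef1 fell to between 38.8% and 63.2% of control. Foxd3 did not pass the test. Thus 2 of the 8 genes were higher and 5 were lower at an adjusted p under 0.05 (edgeR, quasi-likelihood F test, Benjamini-Hochberg adjusted over all genes tested). Among all genes tested, 33.2% were higher and 32.0% were lower by the same rule, 65.3% in either direction. The median log2 fold change of the 8 genes was -0.68, against 0.024 over all genes tested.

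**Figure D1:**
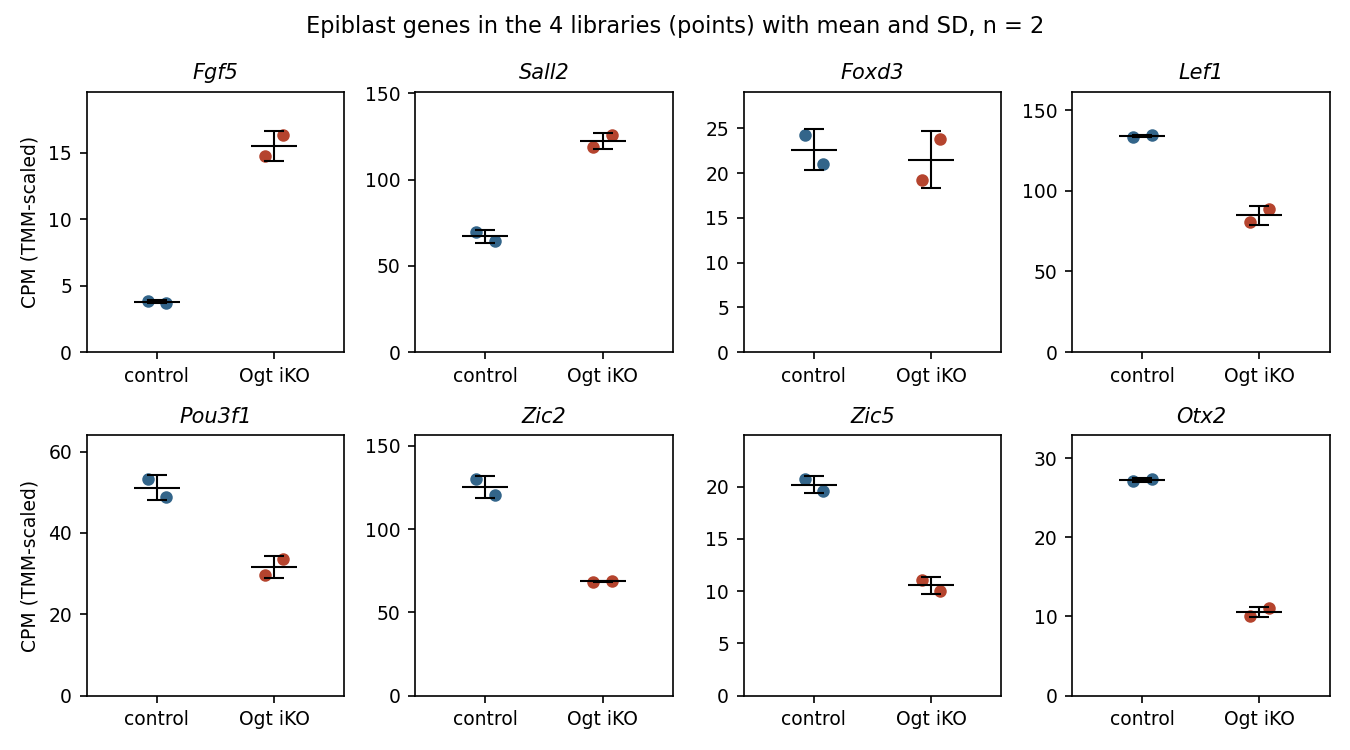
Level of each epiblast gene as CPM (counts per 1e+06 counts of the TMM-scaled library size), with 1 point for each library and the mean and SD of each group (n = 2); the axes start at 0 and differ between genes. Fgf5 and Sall2 lay higher in both Ogt iKO libraries, Foxd3 overlapped, and the other 5 genes lay lower.

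As a check of the design, Ogt had 2963 and 3108 counts in the controls and 437 and 389 after 4-OHT, or 12.9% of control (log2 fold change -2.96, SE 0.0676, edgeR adjusted p 2.486e-07). Library totals ran from 14668489 to 16504204 counts. The 12 stem cell markers were all detected, and their summed level was 2862 and 3200 CPM in Ogt iKO against 5361 and 5414 CPM in control. The 20 markers of feeder fibroblasts summed to 3302 CPM in Ogt iKO replicate 1, 994 CPM in Ogt iKO replicate 2, and 1251 and 1416 CPM in the controls. None of these markers was at 0. The sort was described as removing feeders, but the labels name the Thy1 product as the stain that keeps mESC and the Epcam product as the one that excludes feeders, the reverse of their usual use, so which cells the sort kept is unclear and the marker sums are read with that doubt. Thy1, on the fibroblast list, had 25.6 and 8.90 CPM in Ogt iKO and 15.6 and 15.7 CPM in control, and Epcam, on the stem cell list, had 280.4 and 287.0 CPM against 347 and 307 CPM. Of the 20 fibroblast markers, 3 were higher and 17 were not called, with a median log2 fold change of 0.28. That median was -0.86 without Ogt iKO replicate 1 and 0.87 without Ogt iKO replicate 2. For most of these markers the 2 Ogt iKO libraries thus lay on opposite sides of the controls. Values without each of them are given after the single genes. In such bulk libraries, fewer cells of a type and less RNA per cell cannot be told apart.

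Fgf5 encodes the secreted fibroblast growth factor that serves as the classic marker of the epiblast after implantation. It had 252 and 253 counts in Ogt iKO and 60 and 57 in control, or 14.7 and 16.3 CPM against 3.88 and 3.72 CPM. Both Ogt iKO libraries lay far above both controls, and the controls differed little from each other. Means were 15.5 ± 1.11 and 3.80 ± 0.114 CPM (SD, n = 2 each) for Ogt iKO and control. The log2 fold change was 2.03 (SE 0.163, edgeR adjusted p 1.679e-05), between 1.93 and 2.13 in the 4 pairs of libraries. Among the 8 genes this was the largest change in size.

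Sall2 encodes a zinc-finger transcription factor of the spalt-like family. It had 2034 and 1948 counts in Ogt iKO and 1081 and 991 in control, or 119 and 126 CPM against 69.9 and 64.6 CPM. The groups did not overlap, and the spread within each was small beside the distance between them. The log2 fold change was 0.86 (SE 0.069, edgeR adjusted p 1.631e-05).

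The promoter letters of the genes that rose are shown because the study concerned DNA methylation, which in these cells falls mainly on CpG sites, written here in capitals. Each run is the 250 bases before the outermost annotated start, 5′ to 3′ on the gene's strand, from RefSeq on GRCm38.p6. That of Fgf5 lies at chr5:98253934-98254183 (+ strand) and that of Sall2 at chr14:52328671-52328920 (- strand).
Fgf5: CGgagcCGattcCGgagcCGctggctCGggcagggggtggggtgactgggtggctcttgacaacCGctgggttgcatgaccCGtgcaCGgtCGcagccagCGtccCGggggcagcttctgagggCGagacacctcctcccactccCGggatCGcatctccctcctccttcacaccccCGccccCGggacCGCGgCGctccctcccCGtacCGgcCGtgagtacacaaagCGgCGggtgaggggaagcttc
Sall2: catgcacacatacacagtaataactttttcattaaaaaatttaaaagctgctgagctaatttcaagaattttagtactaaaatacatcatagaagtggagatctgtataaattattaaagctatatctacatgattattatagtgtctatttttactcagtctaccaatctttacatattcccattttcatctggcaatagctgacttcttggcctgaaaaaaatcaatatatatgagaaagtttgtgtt

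The run before Fgf5 held 24 CpG sites and the run before the outer start of Sall2 held 0. Which annotated start was used in these cells was not tested. Sall2 also has an inner annotated start, whose 300-base window held 10 CpG sites.

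Otx2 encodes a homeodomain factor that works with the core pluripotency factors on exit from the naive state. It had 173 and 171 counts in Ogt iKO and 419 and 420 in control, or 10.1 and 11.0 CPM against 27.1 and 27.4 CPM. Every Ogt iKO value was below every control value, and replicates were close. The log2 fold change was -1.37 (SE 0.112, edgeR adjusted p 1.876e-05), which left 38.8% of the control level, the lowest share among the 8 genes.

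Zic2 and Zic5 encode zinc-finger factors of the Zic family and lie next to each other on chromosome 14, pointing away from each other, with 9.73 kb between them. Zic2 had 1168 and 1069 counts in Ogt iKO and 2015 and 1851 in control, or 68.3 and 68.9 CPM against 130 and 121 CPM. Zic5 had 190 and 155 counts in Ogt iKO and 321 and 301 in control, or 11.1 and 9.99 CPM against 20.7 and 19.6 CPM. Both genes were lower in each Ogt iKO library than in either control, and they fell by similar amounts. The log2 fold change of Zic2 was -0.87 (SE 0.0659, edgeR adjusted p 1.268e-05). That of Zic5 was -0.93 (SE 0.126, edgeR adjusted p 0.0002543). The transcript 2610035F20Rik, annotated between them 185 bases before the start of Zic2, also fell, from 95 and 100 counts in control to 64 and 48 in Ogt iKO (log2 fold change -0.88, SE 0.200, edgeR adjusted p 0.004479). These 3 genes stood at 52.4% to 54.7% of control, while Pcca, 4.04 kb beyond Zic2, was not called (log2 fold change -0.21, edgeR adjusted p 0.08166). The strand that was counted is not given in the sources used here.

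Pou3f1 encodes a POU-domain factor of the epiblast and early neural tissue. It had 509 and 522 counts in Ogt iKO and 825 and 751 in control, or 29.8 and 33.7 CPM against 53.30 and 48.96 CPM. The groups did not overlap, and the log2 fold change was -0.69 (SE 0.0924, edgeR adjusted p 0.0002468).

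Lef1 encodes an HMG-box factor that binds DNA and recruits β-catenin. It had 1379 and 1376 counts in Ogt iKO and 2065 and 2060 in control, or 80.7 and 88.7 CPM against 133 and 134 CPM. It was lower in both Ogt iKO libraries (log2 fold change -0.66, SE 0.0661, edgeR adjusted p 5.11e-05). An annotated gene on the opposite strand covers 13.8% of the exon length of Lef1 and another covers 8.57% of that of Pou3f1, so their counts are uncertain, and the part of that overlap was not tested.

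Foxd3 encodes a forkhead factor needed by pluripotent cells and by the neural crest. It had 329 and 369 counts in Ogt iKO and 375 and 323 in control, or 19.2 and 23.8 CPM against 24.2 and 21.1 CPM. The groups overlapped, with the Ogt iKO libraries holding both the lowest and the second highest value. The log2 fold change of Foxd3 was -0.08 (SE 0.130, edgeR adjusted p 0.6296), and its sign turned under scaling by library totals (0.094).

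**Figure D2:**
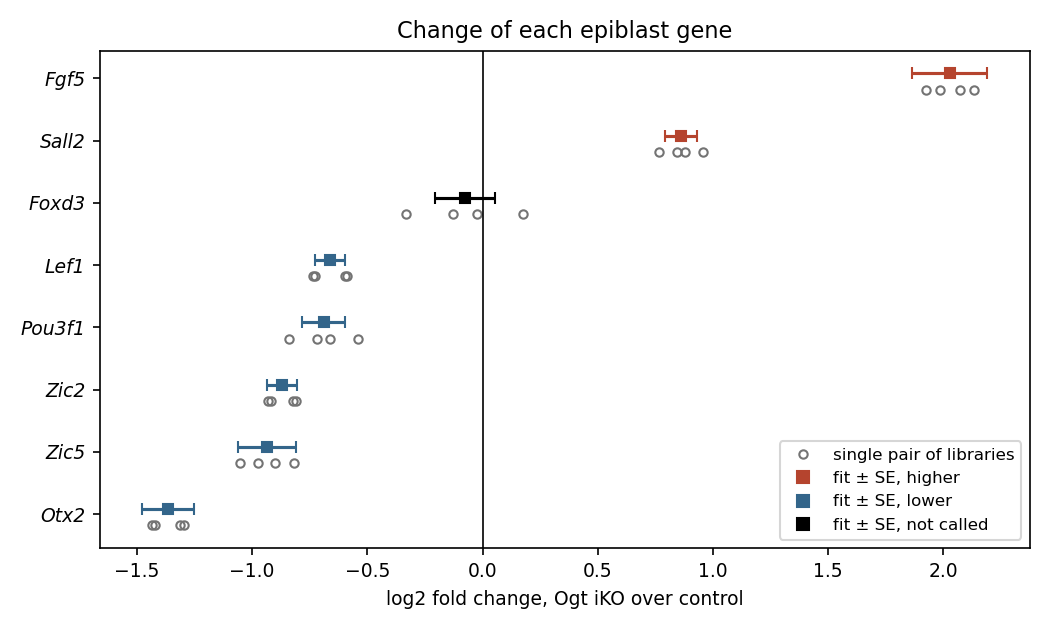
Log2 fold change of each epiblast gene in Ogt iKO over control, with squares for the fitted value and its SE and open circles for the 4 pairs of single libraries. Pairs kept 1 sign for 7 genes, and those of Foxd3 ran from -0.33 to 0.18.

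The promoters of Otx2 and Zic5 are shown for comparison with those of the genes that rose. The run before Otx2 lies at chr14:48667645-48667894 and that before Zic5 at chr14:122465659-122465908, both on the - strand of GRCm38.p6, with CpG sites in capitals as above.
Otx2: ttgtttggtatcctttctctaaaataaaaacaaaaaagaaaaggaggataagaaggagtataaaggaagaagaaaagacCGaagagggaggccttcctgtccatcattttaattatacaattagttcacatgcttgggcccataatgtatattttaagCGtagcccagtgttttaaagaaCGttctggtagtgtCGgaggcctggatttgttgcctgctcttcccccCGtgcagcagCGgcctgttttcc
Zic5: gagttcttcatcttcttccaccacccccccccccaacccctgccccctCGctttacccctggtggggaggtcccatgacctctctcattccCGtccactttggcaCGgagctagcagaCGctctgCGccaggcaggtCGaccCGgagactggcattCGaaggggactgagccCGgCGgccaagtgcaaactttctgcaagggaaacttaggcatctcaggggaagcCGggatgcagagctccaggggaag

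These runs held 6 and 11 CpG sites, between the values of Sall2 and Fgf5. RefSeq promoter windows were matched for 6 of the 8 genes, giving 13 windows of 300 bases (250 before a start and 50 after it), while Pou3f1 and Zic2 were not matched. CpG sites per window ran from 1 at the outer start of Sall2 to 29 at Fgf5, and the window of Foxd3, which was not called, held 25. Over all 32851 windows of the table the median was 7 and the quartiles were 3 and 20. On either strand, the letters TAATCC, the core bound by OTX factors, were in 1 of the 13 windows (Otx2) and in 7.06% of all windows. CTTTGA, a core of TCF and LEF sites, was in 1 of 13 (Lef1) and in 16% of all windows. The octamer ATGCAAAT was in 0 of 13 and in 1.74% of all windows. A match is a description of letters, not of binding.

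Per kilobase of exon model the order of the genes changed between the groups. In control, levels ran from Zic2 (43.6 CPM per kb ± 2.33, SD, n = 2) through Lef1 (15.2 ± 0.0707), Pou3f1 (13.3 ± 0.799), Sall2 (12.4 ± 0.686), Foxd3 (9.75 ± 0.967), Otx2 (6.45 ± 0.0523) and Zic5 (4.13 ± 0.162) to Fgf5 (1.52 ± 0.0453). Pou3f1 and Sall2 overlapped between replicates, and the other neighbours in that order did not. In Ogt iKO, Zic2 (23.8 CPM per kb ± 0.149) and Sall2 (22.5 ± 0.863) led, then Lef1 (9.63 ± 0.645), Foxd3 (9.26 ± 1.39) and Pou3f1 (8.24 ± 0.714). Fgf5 (6.21 CPM per kb ± 0.443) came next, above Otx2 (2.51 ± 0.151) and Zic5 (2.16 ± 0.161). Here Foxd3 overlapped with Lef1 and with Pou3f1. Fgf5 was thus the lowest of the 8 in control and sixth in Ogt iKO. Summed over the 8 genes, the level was 353 and 378 CPM in Ogt iKO and 463 and 440 CPM in control, on the CPM scale not corrected for length.

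The 7 genes that passed the test also had groups that did not overlap, which held for 83.2% of all genes tested. Their calls stood in all 13 alternatives. Without Ogt iKO replicate 1, the library with most fibroblast RNA, the log2 fold change was 2.11 for Fgf5, 0.91 for Sall2, -1.30 for Otx2, -0.86 for Zic2, -1.01 for Zic5, -0.60 for Pou3f1 and -0.59 for Lef1. The ratio of the first to the second Ogt iKO library lay between 0.809 and 1.11 for the 8 epiblast genes, and between 1.16 and 9.98, with a median of 4.03, for the 20 fibroblast markers. Changes without Ogt iKO replicate 1 were thus slightly larger for Fgf5, Sall2 and Zic5 and slightly smaller for Otx2, Zic2, Pou3f1 and Lef1. Without Ogt iKO replicate 2, the log2 fold change was 1.93 for Fgf5, 0.80 for Sall2, -1.45 for Otx2 and -0.90 for Zic2. For Zic5, Pou3f1 and Lef1 it was then -0.88, -0.80 and -0.75.

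**Figure D3:**
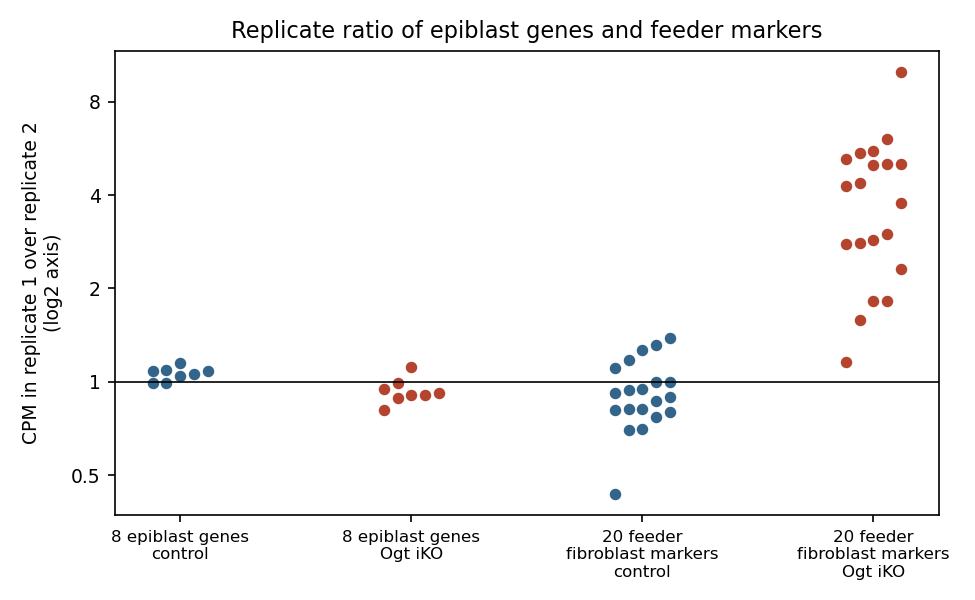
CPM in replicate 1 divided by CPM in replicate 2 (log2 axis), with 1 point for each gene, for the 8 epiblast genes and 20 feeder fibroblast markers in each group. Epiblast genes stayed near 1 in both groups, while all fibroblast markers lay above 1 in Ogt iKO.

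The naive factors fell as a group by count. Of 20 naive factors tested, 18 were lower and 1 was higher (edgeR), beside 32.0% lower and 33.2% higher among all genes tested. Their median log2 fold change was -0.82. Spic, picked with its values known, passed the filter through the control libraries (7 and 2 counts in Ogt iKO, 18 and 15 in control). Without the filter, 18 of the 20 were again lower. Klf4, a Krüppel-like factor that sustains self-renewal, had 31.8 and 30.4 CPM in Ogt iKO and 107 and 113 CPM in control. Fbxo15, a target of the core factors, had 87.0 and 89.8 CPM against 221 and 194 CPM. Gbx2, a homeodomain factor downstream of LIF that is also on the neural list, had 16.5 and 17.3 CPM against 83.0 and 63.6 CPM, although an opposite-strand gene covers 43.5% of its exon length. Log2 fold changes were -1.82 for Klf4, -2.12 for Gbx2, -1.47 for Nanog and -1.23 for Fbxo15. The exception was Dppa3, named after its values were seen, a gene of the naive epiblast and germ line that rose by 0.79 (82.9 and 99.7 CPM against 51.5 and 53.7 CPM). Dppa5a, also picked so, did not pass the test (log2 fold change -0.03). General pluripotency genes, shared by the naive and primed states, were lower in 11 of 11 cases (8 under scaling by library totals and 7 by glmTreat, a test against a fold of 1.2). Sox2 had 122 and 131 CPM in Ogt iKO and 372 and 393 CPM in control (log2 fold change -1.59). So 18 naive factors fell while 2 of 8 epiblast genes rose and 5 fell, and the median changes of both lists were below 0.

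**Figure D4:**
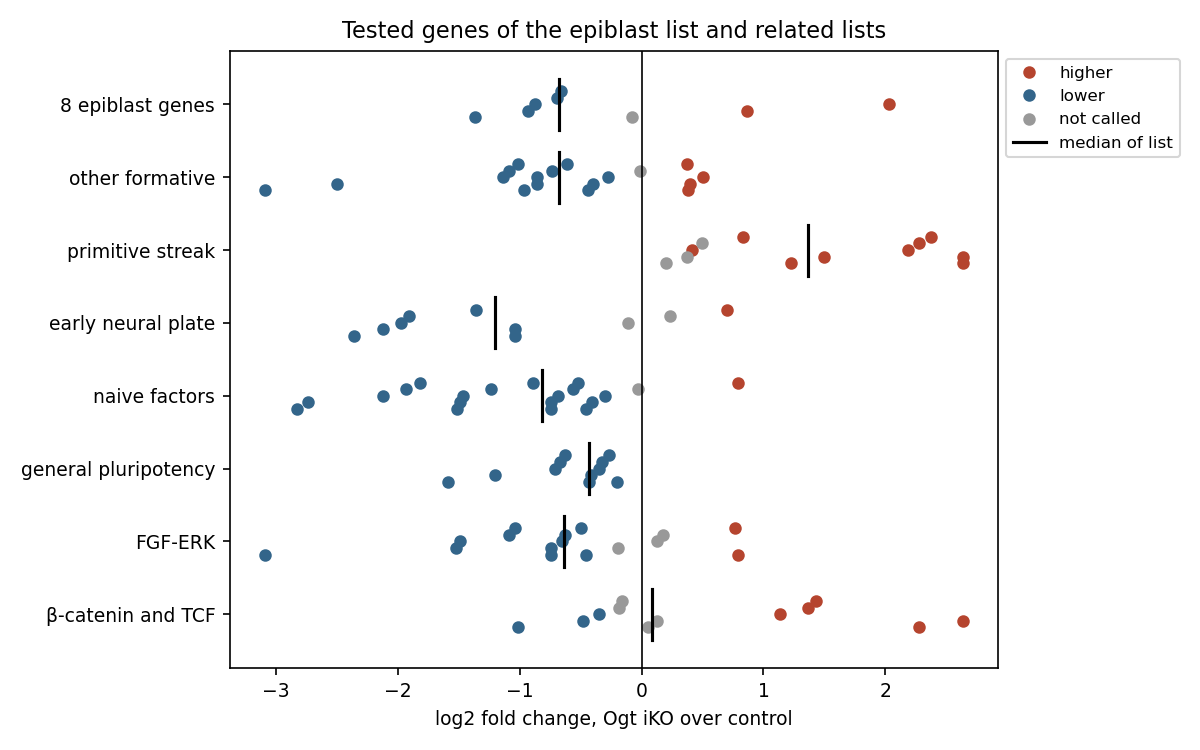
Log2 fold change in Ogt iKO over control for each tested gene of the epiblast list and 7 related lists, coloured by call, with a bar at the median of each list. The epiblast genes and naive factors had medians of -0.68 and -0.82, and the 12 tested primitive streak genes had a median of 1.36 (0.65 over all 16 without the filter on low counts).

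Other genes of the formative epiblast gave a like count. Of 18 tested, 13 were lower and 4 were higher, beside 32.0% lower and 33.2% higher among all genes tested. Their median was -0.67. Etv4, an ETS factor induced by FGF, went from 99.5 and 88.1 CPM in control to 10.06 and 11.99 CPM in Ogt iKO. Tcf15, a basic helix-loop-helix factor that primes naive cells for exit, went from 56.9 and 45.1 CPM to 9.30 and 8.77 CPM. Both fell well below the range of the controls, with log2 fold changes of -3.09 and -2.49. Tcf7l1, a repressor that restrains naive genes, fell by 1.01 and Etv5 fell by 1.08. The risers, picked here with their values known, were Fgf8 (0.50), Cldn6 (0.40), Nodal (0.38) and Grhl2 (0.37). DESeq2 and the fits without Ogt iKO replicate 2 or without control replicate 2 each called 2 of the 18 higher, and glmTreat called 1.

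Several genes of the late epiblast and primitive streak, the site where gastrulation begins, were higher. Of 16 genes, 12 passed the filter on low counts. Of these, 9 were higher and 3 were not called (edgeR), beside 33.2% higher and 32.0% lower among all genes tested. The filter shaped this count, since Foxa2 (33 and 34 counts in Ogt iKO, 6 and 4 in control) passed it through the Ogt iKO libraries, while Evx1 (3 and 2 counts against 10 and 7) did not pass it. These were picked with their values known. Without the filter, 7 of all 16 were higher, 1 was lower and 8 were not called. DESeq2 called 5 of 13 higher, and edgeR without control replicate 2 called 6. The median log2 fold change was 1.36 over the 12 that passed the filter and 0.65 over all 16 without it. Fst, an inhibitor of activin, had 32.1 and 35.5 CPM in Ogt iKO and 7.95 and 6.85 CPM in control. Wnt3, the Wnt ligand of the streak, had 10.4 and 13.3 CPM against 2.58 and 2.28 CPM. Sp5, a direct target of β-catenin, had 7.60 and 11.5 CPM against 1.81 and 1.24 CPM. Eomes, a T-box factor of the streak and trophoblast, had 19.9 and 19.7 CPM against 9.18 and 7.76 CPM. In all 4 genes the groups were separate, with log2 fold changes of 2.19 for Fst, 2.28 for Wnt3, 2.64 for Sp5 and 1.23 for Eomes. T, the defining factor of the streak, picked here with its values known, did not pass the test (55 and 60 counts against 42 and 35, edgeR adjusted p 0.09753).

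Early neural plate genes fell by count, with 7 of 10 tested lower and 1 higher, beside 32.0% lower and 33.2% higher among all genes tested. Their median was -1.20. Sox1, a SOX factor of neural progenitors, had 11.99 and 11.93 CPM in Ogt iKO and 65.3 and 57.4 CPM in control. Pax6 had 4.27 and 3.68 CPM against 15.4 and 14.4 CPM, and Sox11 had 26.3 and 25.7 CPM against 56.5 and 50.3 CPM. Log2 fold changes were -2.36 for Sox1, -1.91 for Pax6 and -1.04 for Sox11. Ncam1, chosen after its values were seen, was the 1 gene that rose (0.70). A wider list of neural and neural crest markers summed to 136 and 138 CPM in Ogt iKO and 247 and 241 CPM in control. Of 12 tested, 4 were higher and 5 were lower, beside the same shares of all genes, so nothing is read from this count.

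**Figure D5:**
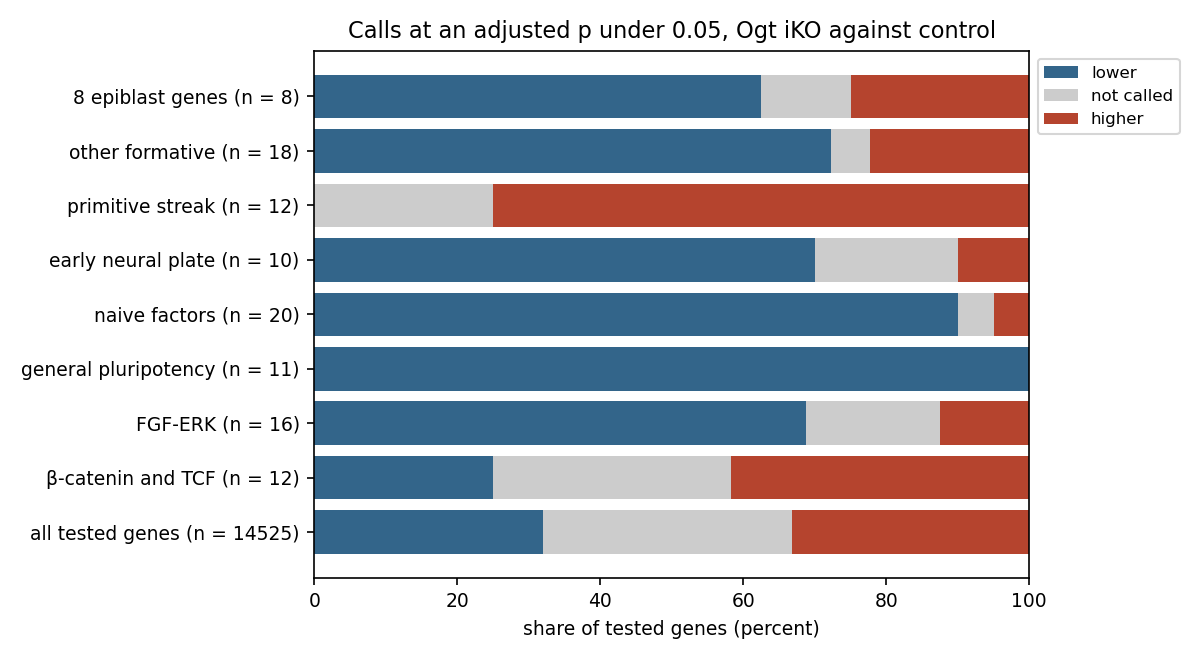
Share of tested genes called higher, lower or not called at an adjusted p under 0.05 in each list and among all 14525 genes tested. The naive factors were mostly lower (18 of 20), the 12 tested primitive streak genes were higher (9) or not called (3), and the epiblast list held calls in both directions.

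Markers of other lineages were counted as well, beside 33.2% higher and 32.0% lower among all genes tested. The 14 markers of primitive and visceral endoderm summed to 259 and 174 CPM in Ogt iKO and 119 and 114 CPM in control, with 5 of 11 tested higher and 0 lower, and Ttr at 0 counts in every library. Sox17 (19 and 14 counts in Ogt iKO, 1 and 2 in control) and Foxa2, both picked with their values known, passed the filter through the Ogt iKO libraries, and without the filter 4 of 13 were higher. DESeq2 called 4 higher and 0 lower, and edgeR with the replicate number as a block called 8 of 11 higher and 0 lower. Without Ogt iKO replicate 2, 9 were higher, and without Ogt iKO replicate 1, 4 were higher and the median log2 fold change fell from 0.58 to 0.17. The 12 trophoblast markers summed to 525 and 517 CPM against 155 and 143 CPM, with 8 of 10 tested higher and 1 lower. Of these sums, Krt18 held 238.5 and 242.9 CPM in Ogt iKO and 22.2 and 17.3 CPM in control. Krt8 held 89.9 and 101 CPM against 8.66 and 5.87 CPM. Tfap2c was the 1 lower gene (log2 fold change -2.28), and Cdx2 was not called (edgeR adjusted p 0.3025). Elf5 had 2 and 0 counts in Ogt iKO and 0 in both controls, and Tpbpa had 0 counts in every library. Apart from Tpbpa, these markers were picked with their values known. Eomes, Hand1 and Cdx2 are on the streak and trophoblast lists, and Foxa2 is on the streak and endoderm lists. The part of these lineages in the streak values or in the epiblast genes was not tested.

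The inputs that act on the epiblast genes were examined next. Of 16 genes of FGF and ERK signalling, 11 were lower and 2 were higher, beside 32.0% lower and 33.2% higher among all genes tested. Their median was -0.64. Etv4 and Etv5, among the 11, are also on the formative list and Fgf4 on the naive list, so the counts of these lists are not separate. Fgf4, the main FGF of stem cells, had 81.4 and 104 CPM in Ogt iKO and 255 and 267 CPM in control. Spry4, an ERK feedback inhibitor, had 23.3 and 19.2 CPM against 63.6 and 58.6 CPM. Both fell, by 1.49 and 1.52 on the log2 scale, while Fgf5 rose. The higher genes, picked here with their values known, were Fgfr2 (0.79), a receptor, and Egr1 (0.77). Of 12 genes around β-catenin and the TCF factors, 5 were higher and 3 were lower, with a median of 0.089, beside 33.2% higher and 32.0% lower among all genes tested. Sp5 and Wnt3, among the 5, are also on the streak list, and Tcf7l1, among the 3, is also on the formative list. DESeq2 called 3 higher and 3 lower, and edgeR without Ogt iKO replicate 1 called 5 higher and 5 lower. Scaling by library totals gave 7 higher and 2 lower. Axin2, a feedback inhibitor induced by β-catenin, rose from 17.1 and 15.7 CPM to 39.6 and 45.0 CPM (log2 fold change 1.37), as Lef1 fell.

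Of 17 paralogues of the epiblast genes, 12 were tested, and 4 were higher and 6 were lower, beside 33.2% higher and 32.0% lower among all genes tested. Otx1, Foxd1 and Foxd2 passed the filter through the Ogt iKO libraries, where they were high, so nothing is read from this count, and without the filter 7 of the 17 were not called. Otx1 was higher (36 and 25 counts in Ogt iKO, 9 and 6 in control, log2 fold change 1.92) where Otx2 was lower. In the spalt-like family, Sall2 and Sall3 rose (Sall3 by 1.26), and Sall1 (-1.82) and Sall4 (-0.42) fell. In the Zic family, Zic1 (-1.36) fell with Zic2 and Zic5, and Zic4 was too low to test. The Zic1 value was -0.97 without control replicate 1 and -1.68 without control replicate 2. Foxd1 rose by 2.42 (41 and 34 counts against 10 and 3) and Foxd2 by 1.98 (14 and 16 counts against 2 and 5), unlike Foxd3. The Foxd1 value was 3.49 without control replicate 1 and 1.81 without control replicate 2. The call of Foxd2 was lost with DESeq2 (adjusted p 0.1323) and without control replicate 1 (edgeR adjusted p 0.09651). Tcf7 (-0.48) and Tcf7l1 (-1.01) fell with Lef1, while Tcf7l2 (-0.19) and Pou3f3 (0.11) did not pass the test. Tcf7l2 passed it without Ogt iKO replicate 1 (-0.41, edgeR adjusted p 0.04371).

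The epiblast genes were also placed on the genome. In GRCm38, Fgf5 lies on chromosome 5 (98254184 to 98277033), Lef1 on chromosome 3 (131110297 to 131224357), and Pou3f1 (124657646 to 124660655) and Foxd3 (99656299 to 99658671) on chromosome 4. The other 4 lie on chromosome 14, Otx2 from 48656781 to 48667644, Sall2 from 52311177 to 52328670, Zic5 from 122459160 to 122465658 and Zic2 from 122475384 to 122480328. The nearest tested genes on each side gave 15 neighbours that were not epiblast genes, of which 4 were higher, 7 were lower and 4 were not called. Antxr2, the tested gene nearest before Fgf5 at a distance of 223 kb, rose by 1.30 (205 and 132 counts against 60 and 68). Mir703, nearer to Fgf5 on the other side at 199 kb, fell by 0.74. Mettl3, 2.44 kb from Sall2, fell by 0.56 where Sall2 rose. Among all genes tested, 33.2% were higher and 32.0% were lower, and nothing about the neighbours is read from their counts.

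Genes most like Fgf5 and Otx2 over the 4 libraries were found by the Euclidean distance between their centred log2 CPM values, leaving out genes whose mean log2 CPM was under 2. Nearest to Fgf5 were Ecscr (distance 0.0563, 142 and 148 counts in Ogt iKO, 35 and 33 in control), Prss8 (0.0689) and Mmd2 (0.0698). Nearest to Otx2 were Pipox (distance 0.0143, 328 and 322 counts against 796 and 798), Acp6 (0.0306) and St6galnac6 (0.0478). With 4 libraries in 2 groups, likeness here says mainly that the fold change was of the same size.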

How the data were processed

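Polyadenylated RNA of 4 libraries (2 Ogt iKO and 2 control, as their titles state) was analysed. The authors deposited raw counts, 1 whole number per gene symbol, with 0 rows that name no gene. Per the submitters' processing notes, STAR and Picard were used with the mm10 build. Versions, annotation and counted strand are not given in the sources used here. Per the labels' protocols, libraries came from a stranded Illumina kit.

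Tests used R 4.3.3 and edgeR 4.0.16 (glmQLFTest, TMM scaling, filterByExpr, all libraries in one fit). Calls were made at a Benjamini-Hochberg adjusted p under 0.05 over 14525 genes. SE was the log2 fold change over the root of its F statistic. An exact permutation test of 2 libraries against 2 cannot give a p below 0.333. The test was checked on simulated data with few changed genes and the same spread for every gene. Most genes were called in the real libraries, so that check says little about error rates here. A count of 0 allows up to 3 counts, or 0.175 to 0.196 CPM on TMM-scaled sizes, a limit for counting error alone, as the labels name no molecular identifiers.

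Exon lengths came from GENCODE M21 and positions from RefSeq, both on GRCm38, the assembly that mm10 names. The text names the 8 genes, Ogt, from each list the genes with the smallest p (4 at most), and tested paralogues, of which 1 is not reported here, besides neighbours and like genes found by position and distance. Other genes, Thy1 and Epcam among them, were named after their values were seen. The 8 genes, the lists and the alternatives (other scaling, DESeq2 1.42.0, filters, a robust spread, a replicate block, a threshold of 0.01, glmTreat with a fold of 1.2, each library left out) were chosen with earlier results of these data known.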

Additional observations from a re-analysis of the deposited data

How the results depend on the processing

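The calls of Fgf5, Sall2, Otx2, Zic2, Zic5, Pou3f1 and Lef1 stood under every alternative run, so 2 epiblast genes were higher and 5 lower in each. Foxd3 was not called under any, but its sign turned: the log2 fold change was 0.094 with library totals and ran from -0.26 to 0.077 when single libraries were left out, with 0.022 without control replicate 1. Pou3f3, a paralogue at 11 to 20 counts, ran from -0.30 to 0.39 across those fits, with -0.14 without control replicate 2. A fit that leaves 1 library in a group assumes that it varies like the other group. Scaling by library totals shifted the median over all genes from 0.024 to 0.19 (log2) and the share of higher among called genes from 50.9% to 65.1%. Under it 17 naive factors were lower, and the changes given here are relative to the bulk of genes.

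Same-numbered libraries did not share deviations clearly (correlation 0.086 over tested genes, from 2 pairs), so the numbers were not taken as pairs. With the replicate block, 4922 genes were higher and 4719 lower, against 4827 and 4651 without it, the epiblast counts were again 2 and 5, and the log2 fold change of Fgf5 was 2.03.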
